A study of Mus musculus with 16 samples.

Results

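The proneural basic helix-loop-helix (bHLH) factors *Neurog2* and *Neurod1*, their dimerisation partners *Tcf3*, *Tcf4* and *Tcf12*, the related bHLH genes *Hes6* and *Bhlhe22*, and the zinc-finger repressor *Insm1* were taken from the deposited expression table by gene symbol. All 8 genes had a row among the 30386 genes of the table, and 7 of them were among the 12533 genes tested, those with more than 1 CPM (counts of a gene scaled to a common library total) in at least 4 of the 16 samples. The samples were neural stem/progenitor cell (NSPC) lines derived from the subventricular zone (SVZ) of C57BL/6 J/Babr mice aged 3 months, grown as non-adherent cultures with epidermal and fibroblast growth factors. The lines carried a constitutively expressed transgene, either mouse *Dbx2*, a homeobox gene (*Dbx2*-NSPCs, 8 samples), or a control green fluorescent protein (*GFP*-NSPCs, 8 samples), put in by nucleofection of a plasmid and puromycin selection, so that each line was a selected population of cultured cells and not a brain tissue. The study used more than 1 independent pair of lines, but the labels do not say which pair a sample came from. Samples are named below by transgene and replicate number, and each comparison is given over all 16 samples and within the numbers 1 to 4 and 5 to 8, which hold 4 samples of each transgene.

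Proneural bHLH factors drive progenitors out of the cell cycle and towards the neuronal lineage. They bind DNA as dimers with the broadly expressed E proteins (*Tcf3* encodes E2A, *Tcf4* encodes E2-2 and *Tcf12* encodes HEB) at the E-box, a short motif that reads CANNTG. Id proteins, which lack the basic DNA-binding region, take E proteins out of such dimers, and the Notch-dependent Hes and Hey repressors silence proneural genes, whereas *Hes6* is a family member that counteracts *Hes1*.

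The transgene and the identity of the cells were examined first. *Dbx2* was at 30.67 CPM at the lowest, 64.4 CPM at the median and 171.22 CPM at the highest in *GFP*-NSPCs, and at 114, 147 and 232.13 CPM in *Dbx2*-NSPCs. The *Dbx2*-NSPC sample was higher than its same-numbered *GFP*-NSPC sample for 8 of 8 numbers. The log2 fold change was 1.26 over all samples (limma, Benjamini-Hochberg adjusted p = 0.00978), 0.54 in numbers 1 to 4 (adjusted p = 0.0892, the groups overlapped; called without *GFP*-NSPC sample 1, adjusted p = 0.0112, or *Dbx2*-NSPC sample 4, adjusted p = 0.0460) and 1.99 in numbers 5 to 8 (adjusted p = 5.67e-08), and reads of the transgene and of the native gene are not separated in the table. Library depth was 1803928 to 3293285 reads. All 7 neural progenitor markers were tested. They summed to between 5451 and 7008 CPM in the control lines and between 4224 and 5803 CPM with the *Dbx2* transgene. Of these markers, 4 were called lower over all samples (*Fabp7*, *Slc1a3*, *Msi1* and *Egfr*) and 0 higher. Of all tested genes, 7.78% were called lower and 8.03% higher. Of 5 astrocyte markers, all tested, *Gfap* (3.31, adjusted p = 3.54e-04) and *Aldoc* (1.42, adjusted p = 5.11e-06) were called higher and *Gja1* (-4.12, adjusted p = 3.42e-04) lower, and their sum went from 256 to 473 CPM in *GFP*-NSPCs to 457 to 813 CPM in *Dbx2*-NSPCs. The part of these markers in the differences of the members was not tested. Defining markers of microglia (*Aif1*, *Tmem119*), endothelium (*Cldn5*, *Cdh5*) and mature oligodendrocytes (*Mog*) were listed at 0 in every sample. Of 7 neuroblast and neuron markers 1 (*Stmn2*) was listed at 0 throughout, while *Map2* was at 684 CPM or more in every sample. *Elavl3*, *Nrxn3* and *Tubb3* were at 6.04 CPM or more in all of them. *Rbfox3* ranged from 0.31 CPM, about 1 read, to 14.86 CPM. *Dcx* was at 6.84 CPM at the highest and was listed at 0 in 6 samples. In these bulk cultures, fewer cells of a type and less RNA per cell cannot be told apart.

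Because the members act through E-boxes, the 250 bases before the RefSeq start of each gene were read from the RefSeq promoter table (build GRCm38.p6), which matched 5 of the 8 members with 8 windows. Below, the windows of 2 genes that were higher in *Dbx2*-NSPCs and of 2 E protein genes that were lower in numbers 5 to 8 are given 5′ to 3′ on the strand of the gene, with E-boxes in capitals and without the bases that lie inside the GENCODE span of the gene.
*Hes6* (chr1:91414039-91414288, minus strand): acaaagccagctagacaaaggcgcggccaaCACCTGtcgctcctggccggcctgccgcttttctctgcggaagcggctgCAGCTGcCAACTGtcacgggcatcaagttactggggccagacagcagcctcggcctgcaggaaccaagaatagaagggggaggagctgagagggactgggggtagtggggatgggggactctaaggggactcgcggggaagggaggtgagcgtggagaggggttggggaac
*Neurod1* (chr2:79456752-79456886, minus strand): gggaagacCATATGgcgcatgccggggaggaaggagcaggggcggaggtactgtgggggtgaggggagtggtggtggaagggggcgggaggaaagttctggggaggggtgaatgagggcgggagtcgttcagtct
*Tcf3* (chr10:80433648-80433885, minus strand): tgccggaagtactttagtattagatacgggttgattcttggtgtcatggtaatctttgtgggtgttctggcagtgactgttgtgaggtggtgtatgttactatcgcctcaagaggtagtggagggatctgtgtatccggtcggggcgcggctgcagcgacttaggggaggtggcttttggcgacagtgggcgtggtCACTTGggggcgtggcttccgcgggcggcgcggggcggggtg
*Tcf12* (chr9:72111872-72112069, minus strand): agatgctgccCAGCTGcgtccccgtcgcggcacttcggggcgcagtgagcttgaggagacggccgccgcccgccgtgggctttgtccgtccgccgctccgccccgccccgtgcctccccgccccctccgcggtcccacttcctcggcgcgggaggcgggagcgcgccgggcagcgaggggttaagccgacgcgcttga

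The *Hes6* window held 3 E-boxes, CACCTG at 220, CAGCTG at 171 and CAACTG at 164 bases before the start. The *Neurod1* window held 1 (CATATG, at 242 bases), the *Tcf3* window 1 (CACTTG, at 54 bases) and the *Tcf12* window 1 (CAGCTG, at 240 bases). The window of *Neurog2* (chr3:127632886-127633135, plus strand) held 0. Of all 32851 windows in the table, 66.2% held at least 1 CANNTG, with a mean of 1.16, and 13.0% held CAGCTG, one of its forms. The other motifs searched on both strands, CAGATG (read as CATCTG on the other strand) and CACGTG, both forms of CANNTG, were in 14.4% and 6.0% of all windows and in 0 windows of the members. The N-box CACNAG, which Hes factors bind, was in 36.7% of all windows and in 1 of the 8 member windows, the second *Hes6* window (chr1:91413223-91413472). A match is a run of letters and says nothing of binding. *Insm1* and *Bhlhe22* had no entry, and no sequence is given for *Tcf4*.

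Over all 16 samples, *Neurod1* and *Hes6* were higher in *Dbx2*-NSPCs, *Insm1*, *Tcf3* and *Tcf12* were lower, and *Tcf4* and *Neurog2* did not pass the threshold of an adjusted p under 0.05, the rule for a call. *Neurod1* (log2 fold change 2.15) and *Insm1* (-2.07) had the differences of largest size, in an order that turned with a pseudocount of 0.1 (2.29 and -3.35) and with DESeq2 (2.64 and -2.70). Among all tested genes 15.8% were called, 8.03% higher and 7.78% lower, against 2 members higher and 3 lower of the 7 tested. *Insm1* and *Neurog2* had passed the filter mainly through the samples in which they were high, so these counts cannot be read as support for a change in the members as a group. *Hes6* was the single member with no overlap between the 8 samples of each transgene, a property that 3.41% of all tested genes shared.

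**Figure D1:**
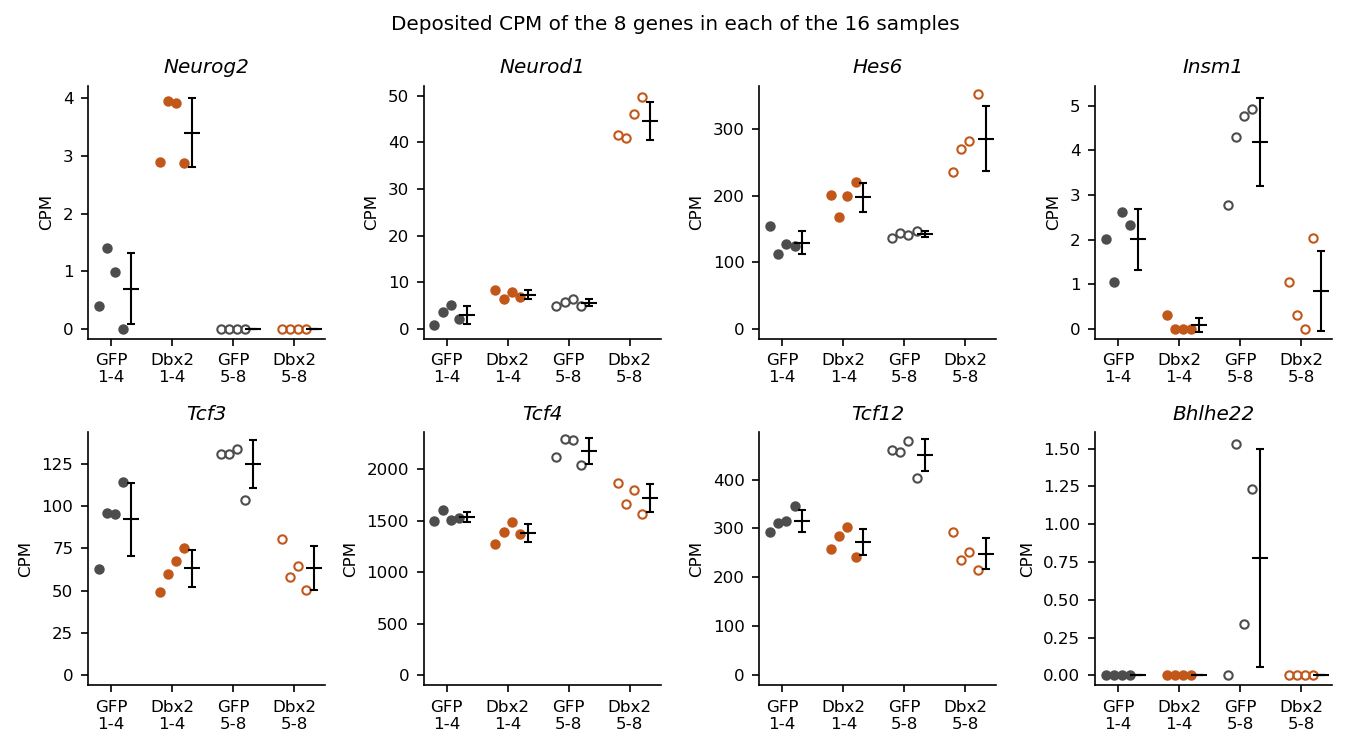
CPM (linear axis from 0) of the 8 genes in each sample, split by transgene and replicate number; points are samples, filled for numbers 1 to 4 and open for 5 to 8, and the bars at their right give the mean and SD of 4 samples. *Neurod1* reached 41.0 to 49.63 CPM only in the *Dbx2*-NSPC samples numbered 5 to 8, and *Neurog2* was listed at 0 in all 8 samples numbered 5 to 8.

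*Neurod1* (ENSMUSG00000034701; GRCm38 chromosome 2, 79452521 to 79456751), a differentiation factor that acts after *Neurog2*, was at 0.81, 3.53, 5.21 and 2 CPM in *GFP*-NSPCs 1 to 4 and at 4.99, 5.83, 6.49 and 4.93 CPM in *GFP*-NSPCs 5 to 8. In *Dbx2*-NSPCs it was at 8.35, 6.37, 7.82 and 6.82 CPM in numbers 1 to 4 and at 41.53, 41.00, 46.05 and 49.63 CPM in numbers 5 to 8. The *Dbx2*-NSPC samples lay above the *GFP*-NSPC samples within each set of numbers, and the *Dbx2*-NSPCs of numbers 5 to 8 lay far above all 12 other samples. The log2 fold change was 2.15 over all samples (standard error 0.494, adjusted p = 0.00538), 1.41 in numbers 1 to 4 (standard error 0.414, adjusted p = 0.0379) and 2.90 in numbers 5 to 8 (standard error 0.175, adjusted p = 6.66e-08), all tested with limma on the log2(CPM + 0.5) scale, in which 0.5 is a pseudocount. The call in numbers 1 to 4 rested on few reads, 90 against 34, and was lost with a pseudocount of 0.1 (adjusted p = 0.0529) and without any one of *GFP*-NSPC samples 1, 2 and 4 and *Dbx2*-NSPC samples 1 to 4 (adjusted p = 0.0522 to 0.101). The pooled ratio of reads there was 2.46, with an exact 95% interval of 1.64 to 3.76 that covers counting error only, against 7.85 (5.98 to 10.5) in numbers 5 to 8. *Neurod1* shares part of an exon with *Cerkl* on the same strand, which averaged 0.338 CPM.

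The difference was 1.49 larger on the log2 scale in numbers 5 to 8 than in 1 to 4 (standard error 0.446, adjusted p = 0.0327). It lost the call with a pseudocount of 0.1 (adjusted p = 0.0997) and without any one of *GFP*-NSPC samples 2, 3, 5 and 8 and *Dbx2*-NSPC samples 2, 6, 7 and 8 (adjusted p = 0.0517 to 0.0837), and its size ranged from 1.18 to 1.88 when 1 sample was left out. Other quantities also differed between the sets. The *Dbx2* difference was itself 1.45 larger in numbers 5 to 8 (adjusted p = 1.04e-04), where the control level was lower and the *Dbx2*-NSPC level was not higher. *Dbx2* averaged 120.4 CPM in *GFP*-NSPCs 1 to 4 and 33.97 CPM in *GFP*-NSPCs 5 to 8 (log2 difference -1.77, limma adjusted p = 9.42e-09). In *Dbx2*-NSPCs it averaged 173.5 and 136.2 CPM. Among the 6 tested neuroblast and neuron markers (of 7), 1 was higher and 4 lower in numbers 1 to 4, against 4 higher and 1 lower in numbers 5 to 8. Of all tested genes, 8.19% were called higher and 7.37% lower in numbers 1 to 4, and 11.5% and 11.7% in numbers 5 to 8. The 7 markers summed to 950 to 1046 CPM in the *GFP*-NSPCs of numbers 1 to 4 and to 812 to 868 CPM in their *Dbx2*-NSPCs, and to 1243 to 1320 against 805 to 962 CPM in numbers 5 to 8. *Map2* made up most of these sums, with means of 860 and 1246 CPM in the *GFP*-NSPCs and 700 and 802 CPM in the *Dbx2*-NSPCs of the 2 sets. The part of *Dbx2* and these markers in the *Neurod1* difference was not tested.

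*Neurog2* (ENSMUSG00000027967; chromosome 3, 127633135 to 127635631), which starts neuronal differentiation in the dorsal forebrain, was detected in numbers 1 to 4 and in no sample of 5 to 8. *GFP*-NSPCs 1 to 4 were at 0.40, 1.41, 0.98 and 0 CPM and *Dbx2*-NSPCs 1 to 4 at 2.89, 3.95, 3.91 and 2.87 CPM, so every *Dbx2*-NSPC sample of that set lay above every *GFP*-NSPC sample. These levels were 8 and 42 reads in all, a ratio of 4.87 with a counting interval of 2.26 to 12, and a log2 fold change of 1.87 on the log2(CPM + 0.5) scale (standard error 0.437, limma adjusted p = 0.0126). With 0 reads in all 8 samples of numbers 5 to 8, the floor of 3 reads over each group corresponds to 0.267 CPM in *Dbx2*-NSPCs and 0.288 CPM in *GFP*-NSPCs, and no fold change is given. Over all samples the log2 fold change was 0.93 with a standard error of 0.583 (adjusted p = 0.307). The difference between the sets, -1.87, did not pass (adjusted p = 0.0648), although it did with a pseudocount of 2 (adjusted p = 0.0192) and without *GFP*-NSPC sample 2 (adjusted p = 0.0368).

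*Hes6* (ENSMUSG00000067071; chromosome 1, 91411483 to 91414038), which proneural factors switch on and which opposes *Hes1*, was at 153.90, 113.22, 127.40 and 123.97 CPM in *GFP*-NSPCs 1 to 4 and at 136.31, 144.47, 141.73 and 146.81 CPM in *GFP*-NSPCs 5 to 8. *Dbx2*-NSPCs were at 200.99, 168.44, 200.26 and 221.38 CPM in numbers 1 to 4 and at 236.53, 270.86, 282.16 and 353.17 CPM in numbers 5 to 8. The lowest *Dbx2*-NSPC sample was above the highest *GFP*-NSPC sample, and the *GFP*-NSPC samples of the 2 sets overlapped. The log2 fold change was 0.80 over all samples (standard error 0.122, adjusted p = 1.53e-04), 0.61 in numbers 1 to 4 (adjusted p = 0.00470) and 0.99 in numbers 5 to 8 (adjusted p = 1.05e-05). The difference between the sets, 0.38, had a 95% interval of 0.04 to 0.72 before adjustment and did not pass (adjusted p = 0.168). Each *Hes6* call was kept in every alternative run.

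*Insm1* (ENSMUSG00000068154; chromosome 2, 146221921 to 146225020), a repressor of progenitors on the way to neurons and endocrine cells, was low throughout. It was at 2.01, 1.06, 2.61 and 2.33 CPM in *GFP*-NSPCs 1 to 4 and at 2.77, 4.29, 4.78 and 4.93 CPM in *GFP*-NSPCs 5 to 8. *Dbx2*-NSPCs had 0.32, 0, 0 and 0 CPM in numbers 1 to 4, a single read in 4 libraries, and 1.06, 0.31, 0 and 2.03 CPM in numbers 5 to 8. Every *Dbx2*-NSPC sample lay below the *GFP*-NSPC samples of its set, while over all samples the groups overlapped. All samples pooled, *GFP*-NSPCs had 68 reads and *Dbx2*-NSPCs had 11, a ratio of 6.66 with a counting interval of 3.498 to 14. In numbers 1 to 4 the pooled reads were 23 against 1, a ratio of 24.8 (4.02 to 1021), and in numbers 5 to 8 they were 45 against 10, a ratio of 4.85 (2.41 to 10.8). On the log2(CPM + 0.5) scale, which understates such low levels, *Insm1* fell by 2.07 over all samples (standard error 0.383, adjusted p = 9.13e-04), fell by 2.10 in numbers 1 to 4 (adjusted p = 0.00373) and fell by 2.03 in numbers 5 to 8 (adjusted p = 0.00614). The gene passed the filter through its *GFP*-NSPC samples.

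*Bhlhe22* (ENSMUSG00000025128; chromosome 3, 18054174 to 18057517), a repressor of the Olig-related branch of bHLH factors, was below the filter and was not tested. It was listed at 0 in 13 samples and at 1.53, 0.34 and 1.23 CPM in *GFP*-NSPCs 6, 7 and 8. These were 9 reads, against 0 in the 8 *Dbx2*-NSPC samples, where the floor of 3 reads over the group corresponds to 0.128 CPM.

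Of the 3 E protein genes, 2 were lower in *Dbx2*-NSPCs over all samples. *Tcf12* (ENSMUSG00000032228; chromosome 9, 71842688 to 72111871) was at 292.48, 310.73, 314.43 and 346.57 CPM in *GFP*-NSPCs 1 to 4 and at 258.14, 284.08, 303.49 and 242.19 CPM in *Dbx2*-NSPCs 1 to 4, and these groups overlapped. In numbers 5 to 8 it was at 460.47, 456.40, 479.48 and 402.61 CPM in *GFP*-NSPCs and at 292.14, 235.45, 251.46 and 216.09 CPM in *Dbx2*-NSPCs, with no overlap. The *Dbx2*-NSPC means of the 2 sets were near each other, 272 ± 27.2 and 249 ± 32.3 CPM (SD, n = 4 each), and the *GFP*-NSPC means were apart, 316 ± 22.5 and 450 ± 33.0 CPM (SD, n = 4 each). *Tcf12* fell by 0.54 on the log2 scale over all samples (standard error 0.112, adjusted p = 0.00241) and by 0.86 in numbers 5 to 8 (standard error 0.094, adjusted p = 1.45e-05). In numbers 1 to 4 the log2 fold change was -0.22 (adjusted p = 0.165). The difference between the sets was -0.64 (standard error 0.141, adjusted p = 0.00328) and was called in every alternative run. Between the sets, 9.44% of all tested genes and 2 of the members, *Neurod1* and *Tcf12*, differed in their transgene difference.

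*Tcf3* (ENSMUSG00000020167; chromosome 10, 80409514 to 80433647) was at 62.85, 95.58, 95.47 and 114.30 CPM in *GFP*-NSPCs 1 to 4 and at 130.77, 130.66, 133.87 and 103.63 CPM in *GFP*-NSPCs 5 to 8. In *Dbx2*-NSPCs it was at 49.44, 59.79, 67.73 and 75.35 CPM in numbers 1 to 4 and at 80.60, 58.09, 64.56 and 50.31 CPM in numbers 5 to 8. *GFP*-NSPC sample 1 lay among the *Dbx2*-NSPCs, and the other 7 *GFP*-NSPC samples lay above all 8 of them. The log2 fold change was -0.76 over all samples (standard error 0.145, adjusted p = 0.00122) and -0.99 in numbers 5 to 8 (adjusted p = 1.14e-04). In numbers 1 to 4 it was -0.53 and not called (adjusted p = 0.0730). It was called there without *GFP*-NSPC sample 1 (-0.70, adjusted p = 0.00785) or *Dbx2*-NSPC sample 4 (-0.62, adjusted p = 0.0408), and with edgeR on the recovered reads (adjusted p = 0.0471).

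*Tcf4* (ENSMUSG00000053477; chromosome 18, 69343356 to 69689079) was at 1498.26, 1606.56, 1504.37 and 1531.25 CPM in *GFP*-NSPCs 1 to 4 and at 1273.02, 1389.43, 1489.43 and 1369.56 CPM in *Dbx2*-NSPCs 1 to 4. In numbers 5 to 8 the *GFP*-NSPCs were at 2116.19, 2290.29, 2279.93 and 2036.89 CPM and the *Dbx2*-NSPCs at 1865.85, 1660.57, 1801.29 and 1564.27 CPM. Within each set the *Dbx2*-NSPC samples lay below the *GFP*-NSPC samples, and across the sets the groups overlapped. The log2 fold change was -0.34 in numbers 5 to 8 (standard error 0.079, adjusted p = 0.00587), -0.16 in numbers 1 to 4 (adjusted p = 0.301) and -0.25 over all samples (adjusted p = 0.157). Fitted with the set of numbers as a covariate, the difference over all samples had the same size and was called (adjusted p = 0.00607). The 3 E protein genes together summed to a mean of 2349 CPM (SD 450, n = 8) in the control lines and of 1875 CPM (SD 221, n = 8) with the *Dbx2* transgene, which is a description with no test.

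**Figure D2:**
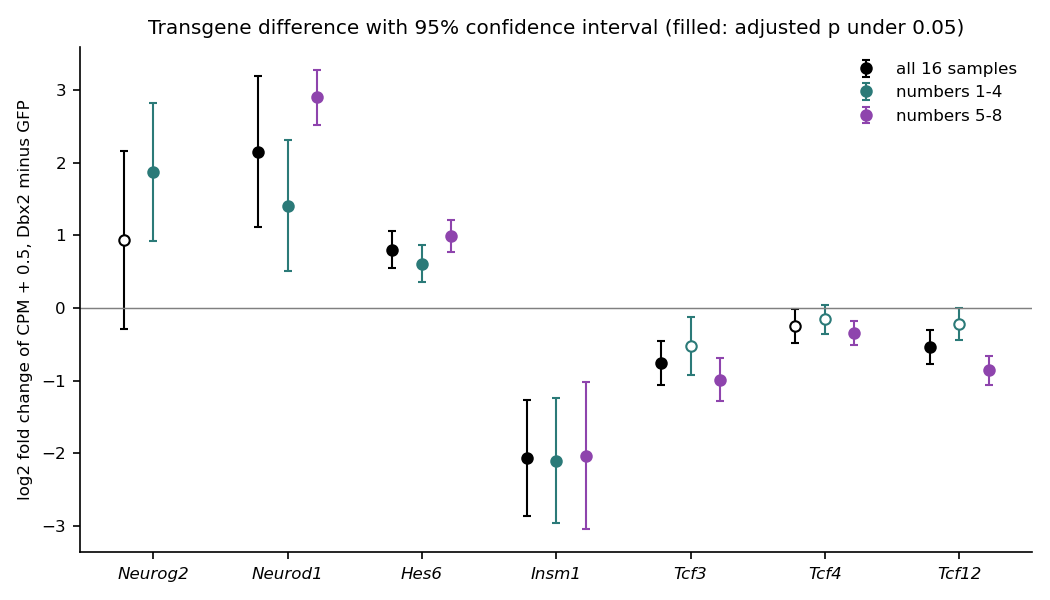
Log2 fold change of CPM + 0.5 (*Dbx2*-NSPCs minus *GFP*-NSPCs) of the 7 tested genes with its 95% confidence interval, over all 16 samples and in each set of numbers; filled points passed an adjusted p under 0.05. *Neurod1* and *Hes6* lie above 0 and *Insm1* below 0 in all 3 comparisons, and *Neurog2* has no point for numbers 5 to 8.

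Within the sets of numbers, 15.6% of all tested genes were called in numbers 1 to 4 (8.19% higher, 7.37% lower), with 3 members higher (*Neurog2*, *Neurod1*, *Hes6*) and 1 lower (*Insm1*). In numbers 5 to 8, 23.2% of all tested genes were called (11.5% higher, 11.7% lower), with 2 members higher (*Neurod1*, *Hes6*) and 4 lower (*Insm1*, *Tcf3*, *Tcf4*, *Tcf12*) of the 6 that had reads in that set. As over all samples, *Neurog2* and *Insm1* had passed the filter mainly through the samples in which they were high. The counts within the sets cannot be read as support for a change in the members as a group. The *GFP*-NSPCs of the 2 sets also differed from each other, with 28.6% of all tested genes called (15.1% higher and 13.5% lower in numbers 5 to 8). Among the members, 4 were called higher in *GFP*-NSPCs 5 to 8 than in 1 to 4 and 0 lower, which were *Neurod1* (log2 difference 1.03, adjusted p = 0.0155), *Tcf4* (0.51, adjusted p = 7.85e-05), *Tcf12* (0.51, adjusted p = 3.75e-04) and *Tcf3* (0.46, adjusted p = 0.0378). The *Neurod1* call was lost without *GFP*-NSPC sample 1 (0.64, adjusted p = 0.0769), and the *Tcf3* call was lost without any one of *GFP*-NSPC samples 1, 2, 3, 5, 6 and 7 (0.29 to 0.49, adjusted p = 0.0526 to 0.175). *Hes6* (0.14, adjusted p = 0.388), *Insm1* (0.93, adjusted p = 0.141) and *Neurog2* (-1.09, adjusted p = 0.0717) did not pass, although *Neurog2* had an unadjusted p of 0.0228 and was called lower with edgeR (adjusted p = 0.0380) and without *GFP*-NSPC sample 4 (adjusted p = 0.0187). The comparison of the *GFP*-NSPC sets, the comparisons within each set and the difference between the sets share the *GFP*-NSPC samples, so their values are not independent.

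Most genes around *Tcf3* were also lower in *Dbx2*-NSPCs. Of the 20 tested genes nearest to it on chromosome 10, 10 on each side over 0.48 Mb, 19 had a negative log2 fold change over all samples, 12 were called lower and 0 higher, and the median was -0.60. With 50 genes on each side (3.22 Mb) the median was -0.36, with 44 called lower and 5 higher. A stretch from 2.015 to 0.416 Mb before *Tcf3* differed, with 15 of 27 genes above 0 and a median of 0.09, and was singled out after its values were seen. The 613 tested genes of chromosome 10 had a median log2 fold change of -0.37 with 78.6% negative, whereas the medians of the other 19 chromosomes lay between -0.09 and 0.09, with 37.6% to 60.8% negative. In bins of 10 Mb, the median was below 0 in all 12 bins of chromosome 10 that held at least 20 tested genes (-0.77 to -0.15). Chromosome 10 stood apart in each set as well, with a median of -0.26 in numbers 1 to 4 (others -0.12 to 0.08) and -0.47 in numbers 5 to 8 (others -0.08 to 0.22). The highest of these, 0.22 with 27.4% negative, was that of chromosome 1, which holds *Hes6*. In single samples, the median of the chromosome 10 genes, each taken relative to its own mean over the 16 samples, was -0.22 to -0.14 in the 8 *Dbx2*-NSPCs, -0.03 to 0.17 in *GFP*-NSPCs 1 to 4 and 0.27 to 0.34 in *GFP*-NSPCs 5 to 8. The lowest of the *GFP*-NSPC values was that of sample 1, the sample in which *Tcf3* was also lowest.

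Taken relative to this chromosome median in each sample, *Tcf3* was lower in *Dbx2*-NSPCs by a log2 difference of -0.39 over all samples (2-sided exact permutation test, 8 against 8, p = 0.0123), in place of -0.76. Within the sets the relative difference was -0.25 in numbers 1 to 4 (exact permutation p = 0.286) and -0.53 in numbers 5 to 8 (exact permutation p = 0.0571), where 4 against 4 samples cannot go below 0.0286. This measure was chosen after the neighbouring genes had been seen, and the permutations over all samples did not keep to the sets. Less the median of its 20 nearest tested genes, the log2 fold change of *Tcf3* was -0.16 over all samples. By the same reckoning it was 0.02 in numbers 1 to 4 and -0.38 in numbers 5 to 8, with no test. The chromosomes of the other tested members had medians near 0: 0.09 for chromosome 1 (*Hes6*), -0.02 for chromosome 2 (*Neurod1* and *Insm1*), -0.07 for chromosome 3 (*Neurog2*), -0.01 for chromosome 9 (*Tcf12*) and 0.00 for chromosome 18 (*Tcf4*). What moved chromosome 10 was not tested.

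**Figure D3:**
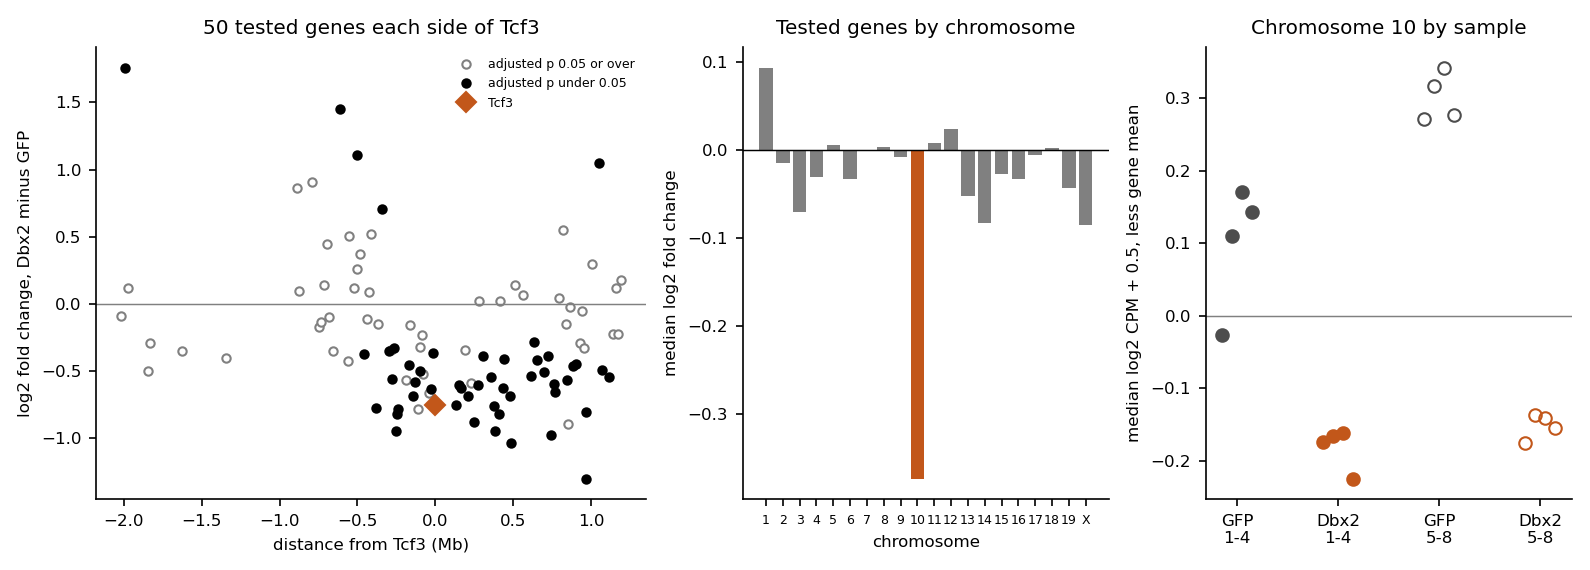
Left, log2 fold change (*Dbx2*-NSPCs minus *GFP*-NSPCs, all samples) of *Tcf3* and 50 tested genes on each side against distance from *Tcf3* in Mb; middle, median log2 fold change of the tested genes of each chromosome; right, median over chromosome 10 genes of log2(CPM + 0.5) less the mean of the gene, 1 point per sample. Chromosome 10 has a median of -0.37 and no other chromosome is below -0.09.

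For each tested member, the 2 genes with the most similar profile were found among those averaging 10 CPM or more in either group, by the root mean square difference between log2(CPM + 0.5) profiles over the 16 samples, each less its own mean. For *Tcf3* these were *Dazap1* (difference 0.149), which lies 0.15 Mb away, and *Wwc1* (0.195). For *Tcf12* they were *Rpf2* (0.132) and *Wdr18* (0.145), both on chromosome 10, and for *Tcf4* *Arhgef2* (0.091) and *Arap2* (0.095). *Hes6* was nearest to *Aldh2* (0.175) and *Sesn2* (0.204). The profiles of the low members had looser neighbours, *Prelp* (0.641) and *Atp9a* (0.653) for *Neurod1*, *Pdpn* (0.602) and *Slc7a11* (0.619) for *Insm1*, and *Gpx1* (0.567) and *Tnr* (0.651) for *Neurog2*. *Atp9a* went from 1.22 and 2.92 CPM in *GFP*-NSPCs 1 to 4 and 5 to 8 to 6.79 and 25.4 CPM in *Dbx2*-NSPCs (means of 4).

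Other genes of the pathway were described by lists set by role. All tested genes had a median log2 fold change of -0.02 over all samples, -0.04 in numbers 1 to 4 and -0.01 in numbers 5 to 8. The shares of all tested genes called in these 3 comparisons were 15.8%, 15.6% and 23.2%. Of 21 other proneural and neural class II bHLH genes, 7 were tested and 0 were called over all samples in either direction by limma, edgeR or DESeq2, with 0 at an unadjusted p under 0.05 and a median of -0.14. *Neurog1*, *Neurog3* and *Atoh1* were listed at 0 in every sample. *Neurod4* and *Nhlh1*, which are expressed in differentiating neurons, moved in opposite directions in the 2 sets. *Neurod4* was at 1 to 1.76 CPM in *GFP*-NSPCs 1 to 4 and listed at 0 in all 4 *Dbx2*-NSPCs 1 to 4 (adjusted p = 0.00482), but was at 0 to 0.82 CPM in *GFP*-NSPCs 5 to 8 and 3.17 to 8.58 CPM in *Dbx2*-NSPCs 5 to 8 (adjusted p = 1.76e-04). *Nhlh1* was at 0.67 to 1.61 against 0 to 0.30 CPM in numbers 1 to 4 (adjusted p = 0.0249; edgeR called 1 of these 2 genes there) and listed at 0 in all *GFP*-NSPCs against 2.46 to 8.58 CPM in numbers 5 to 8 (adjusted p = 3.16e-05). The difference between the sets was called for both (adjusted p = 3.46e-06 for each). Both genes passed the filter only through samples in which they were high, the *Dbx2*-NSPCs 5 to 8 and some *GFP*-NSPCs 1 to 4. Their calls are therefore not support for a change in the list, and their levels in numbers 1 to 4 rest on few reads.

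The inhibitors of E proteins did not move one way. Of the 4 Id genes, all tested, 2 were called higher and 1 lower over all samples, with a median of 0.30 (0.22 and 0.37 in the 2 sets). *Id1* rose by 0.77 (standard error 0.127, adjusted p = 3.16e-04), from 13.85 to 20.86 CPM in *GFP*-NSPCs to 23.92 to 37.63 CPM in *Dbx2*-NSPCs with no overlap. *Id3* had a log2 fold change of -0.94 (adjusted p = 0.00649), from 149 ± 47.5 to 78 ± 22 CPM (SD, n = 8 each). *Id4*, at 0.40 to 8.10 CPM, had a log2 difference of 0.98 (adjusted p = 0.0437), and its call was lost in 16 of 27 alternatives (adjusted p up to 0.0848). *Id2* was not called over all samples (-0.18) but its difference differed between the sets by 0.66 (adjusted p = 0.0427), a call lost in 10 of 21 alternatives. The summed Id level averaged 289 CPM (SD 34.2, n = 8) in the control lines and 216 CPM (SD 25.2, n = 8) with *Dbx2*.

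Of 11 Hes, Hey and Bhlhe repressor genes, 6 were tested and 1 was called over all samples, *Bhlhe40*, a stress- and clock-related repressor, which rose by 1.15 (adjusted p = 0.0189; 26.2 ± 16.9 against 50.2 ± 13.7 CPM). *Bhlhe40* rose by 1.71 in numbers 5 to 8 (adjusted p = 2.94e-05) and was not called in numbers 1 to 4 (0.59, adjusted p = 0.0728). The difference between the sets was called (1.11, adjusted p = 0.0137). The list had a median of -0.18 over all samples, -0.30 in numbers 1 to 4, with 1 lower, and 0.57 in numbers 5 to 8, with 3 higher. *Hes1*, which *Hes6* opposes, averaged 124 CPM with either transgene (SD 21.7 in the control lines and 50.6 with *Dbx2*, adjusted p = 0.770), and was chosen for mention for that role. The Notch targets *Hey1* and *Hes5* differed between the sets, by 1.16 (adjusted p = 3.90e-04) and 2.15 (adjusted p = 0.00662). *Hey1* was called lower in numbers 1 to 4 (-0.95, adjusted p = 0.00293) and not called in numbers 5 to 8 (0.21), and *Hes5* was called higher in numbers 5 to 8 (0.84, adjusted p = 0.0371) and not called in numbers 1 to 4 (-1.30, adjusted p = 0.0602).

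Among 13 cofactors of E proteins and proneural factors, 11 were tested, with 2 called lower over all samples and 0 higher (0 also by edgeR and DESeq2, and 0 at an unadjusted p under 0.05), and a median of -0.18. *Lmo4*, a LIM-only adaptor that assembles bHLH complexes, averaged 446 CPM (SD 101, n = 8) in the control lines and 202 CPM (SD 25.8, n = 8) with *Dbx2*, and it fell by 1.12 on the log2 scale (standard error 0.125, adjusted p = 5.61e-06). It was called lower in both sets (-0.98 and -1.26), and its highest *Dbx2*-NSPC sample, 232.97 CPM, was below its lowest *GFP*-NSPC sample, 320.28 CPM. *Runx1t1*, a corepressor that binds E proteins, ranged from 0 to 4.60 CPM in the control lines and from 0 to 0.68 CPM with *Dbx2* (adjusted p = 0.0317), and passed the filter through *GFP*-NSPCs 5 to 8 alone (2.22 to 4.60 CPM), so that its call is not support for a change in the list. The call was lost without any one of *GFP*-NSPC samples 5 to 8 and *Dbx2*-NSPC samples 1, 3, 4 and 5 (adjusted p = 0.0515 to 0.0677), which leaves 1 cofactor called.

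The 10 genes listed as corepressors of *Insm1* were all tested, with 1 called lower over all samples and 0 higher (0 also by edgeR and DESeq2, and 0 at an unadjusted p under 0.05), and a median of -0.11. The number called was 3 without *Dbx2*-NSPC sample 4 or with the replicate number as a block, and 2 without *GFP*-NSPC sample 1, without *Dbx2*-NSPC sample 5 or with the set of numbers as a covariate. *Hdac2*, a histone deacetylase, fell by 0.58 (adjusted p = 0.00282), from 259 ± 62.4 to 168 ± 12.2 CPM (SD, n = 8 each), and it lies on chromosome 10 with its lower median. It fell by 0.91 in numbers 5 to 8 (adjusted p = 1.05e-06) and was not called in numbers 1 to 4 (-0.26, adjusted p = 0.120). The difference between the sets was called (-0.65, adjusted p = 0.00153). *Kdm1a*, the histone demethylase LSD1, rose by 0.72 in numbers 1 to 4 (adjusted p = 0.0174) and fell by 0.97 in numbers 5 to 8 (adjusted p = 1.93e-05), a difference of -1.69 between the sets (adjusted p = 3.90e-06). *Rcor2*, a CoREST scaffold, was at 0.83 in numbers 5 to 8 (adjusted p = 3.77e-04) and -0.36 in numbers 1 to 4 (adjusted p = 0.153) on the log2 fold change scale.

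Of 22 genes known as targets of proneural factors in other systems, 20 were tested. Over all samples 3 were called higher and 4 lower (median -0.14), against 8.03% and 7.78% of all tested genes. In numbers 1 to 4, 1 was higher and 4 lower (median -0.26), against 8.19% and 7.37%. In numbers 5 to 8, 8 were higher and 4 lower (median 0.21), against 11.5% and 11.7%. *Gadd45g*, a cell cycle exit gene, rose by 1.11 (standard error 0.186, adjusted p = 3.58e-04), from 113 ± 37.1 to 241 ± 59.2 CPM, and was called in both sets. The antiproliferative gene *Btg2* rose by 0.89 (adjusted p = 0.00612) and the migration gene *Rnd2* by 0.71 (adjusted p = 0.00626), both called in numbers 5 to 8 and not in 1 to 4 (adjusted p = 0.306 and 0.243). The 4 lower genes were *Fbxw7* (-0.42, adjusted p = 0.00631) and, named after their values were seen, *Ebf1* (-1.45), *Sox11* (-0.42) and *Ebf3* (-1.87). *Dcx*, a microtubule-associated protein of neuroblasts, was at 4.07 ± 2.23 against 0.0825 ± 0.165 CPM in numbers 1 to 4 (*GFP*-NSPCs against *Dbx2*-NSPCs, adjusted p = 0.00111) and at 0.205 ± 0.410 against 4.74 ± 0.838 CPM in numbers 5 to 8 (adjusted p = 8.48e-05), and the difference between the sets was called (adjusted p = 3.26e-07). *Sox4* likewise fell by 0.68 in numbers 1 to 4 (adjusted p = 0.00212) and rose by 0.38 in numbers 5 to 8 (adjusted p = 0.00712). *Dcx* passed the filter only through *GFP*-NSPCs 1 to 4 and *Dbx2*-NSPCs 5 to 8, where it was high, so its calls are not support for a change. *Myt1l*, 1 of the 8 higher in numbers 5 to 8, passed only through the *Dbx2*-NSPCs of that set (5.28 to 6.69 CPM, at most 0.41 CPM elsewhere). The counts of this list include such genes, so they cannot be read against the shares of all tested genes as support for a change in the list.

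**Figure D4:**
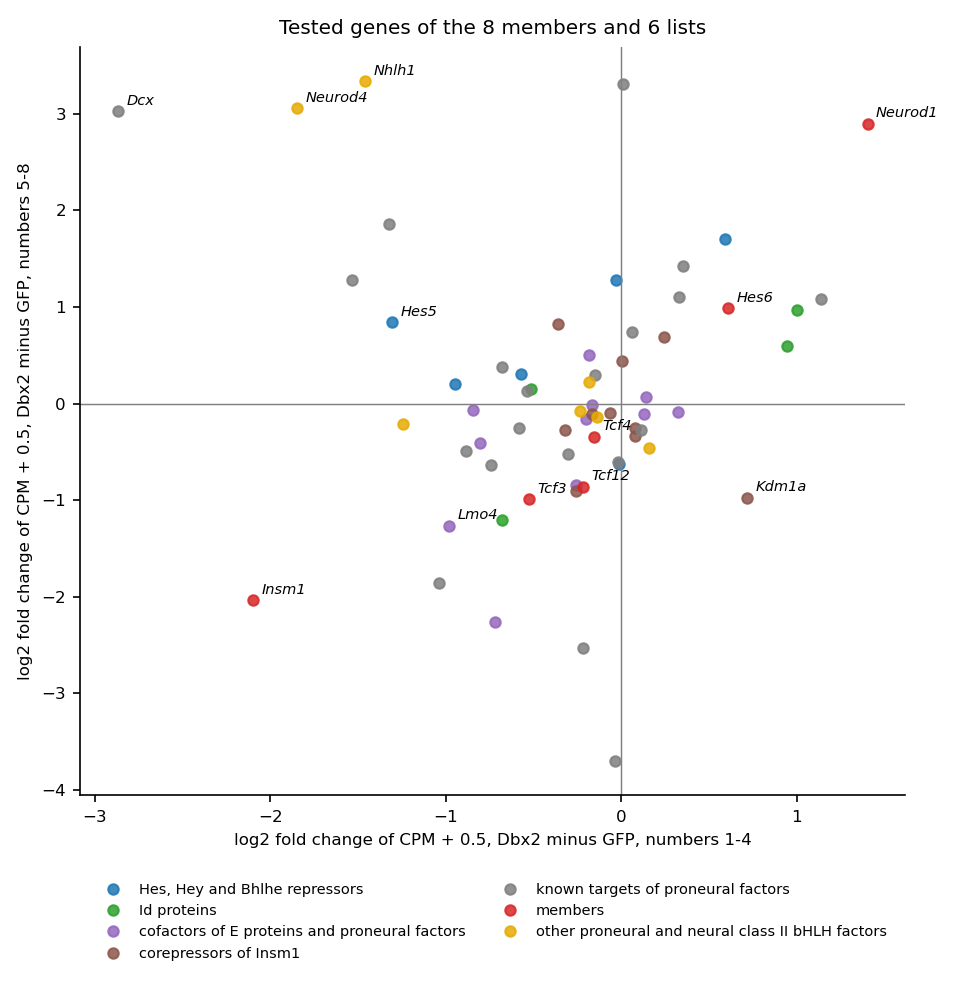
Log2 fold change of CPM + 0.5 in numbers 1 to 4 (horizontal) and 5 to 8 (vertical) for every tested gene of the members and the 6 lists, coloured by list; *Neurog2* is left out because it had 0 reads in numbers 5 to 8. *Hes6* and *Neurod1* lie above 0 on both axes, *Insm1*, *Lmo4* and the E proteins below, and *Dcx*, *Neurod4* and *Nhlh1* are below 0 in numbers 1 to 4 and above 0 in numbers 5 to 8.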

How the data were processed

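RNA from 16 cultures was sequenced by the authors with a 3′ tag kit (QuantSeq, 101 bp single-end reads from 100 ng of total RNA). Per the labels and the study's methods, reads were trimmed with bbduk, checked with FastQC 0.11.8 and aligned with STAR 2.5.0a to GRCm38/mm10. The counting tool is not given in the sources used here. The authors deposited 1 table of CPM values (counts scaled to a common library total, 2 decimals), not length-scaled. In it 99.9991% of values above 0 were whole reads within 0.1 read, so reads per gene were recovered. The number of reads per library limits low genes, since 1 read was 0.304 to 0.554 CPM.

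Genes over 1 CPM in at least 4 of 16 samples were tested on log2(CPM + 0.5) with limma 3.58.1 (trend, 2-sided, Benjamini-Hochberg over 12533 genes) in R 4.3.3. The labels give no cell line, so no covariate was fitted. The fit was tested on simulated data. edgeR 4.0.16, DESeq2 1.42.0, other pseudocounts (0.1 and 2), filters, scalings, a replicate block, the set of numbers as a covariate and leaving out each sample were alternatives. The series calls the samples biological replicates, and the study describes 4 independent experiments per pair of lines. The p-values within the sets and between the sets therefore measure the spread among samples of the same transgene and set. Those over all 16 samples also hold differences between the sets in their spread, since no set term was fitted. In every fit the replicates are cultures, not independently made lines. Differences among lines are not told apart from those of the transgene. Members, lists and comparisons were chosen with earlier results of these data known. Named genes were all members, *Dbx2*, up to 4 genes per list called over all samples, up to 2 called only in the difference between sets, genes near 0, and the 2 most similar genes of each member. Positions come from GENCODE M21. Counting intervals cover counting error only.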

Additional observations from a re-analysis of the deposited data

Results flagged for a closer look

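*Neurod1* and *Tcf12* had transgene differences that were called as differing between the 2 sets of replicate numbers, by a test of the difference itself. The *Neurod1* call was lost in 9 of 21 alternative runs (adjusted p up to 0.0997), and the *Tcf12* call was kept in all 21. The log2 fold change of *Neurod1* was 1.49 larger in numbers 5 to 8 than in 1 to 4 (limma adjusted p = 0.0327), and all 4 *Dbx2*-NSPC samples lay above all 4 *GFP*-NSPC samples in each set. For *Tcf12* the same contrast was -0.64 (adjusted p = 0.00328), with *GFP*-NSPC means of 316 and 450 CPM in the 2 sets against *Dbx2*-NSPC means of 272 and 249 CPM.

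In 42 groups of 4 or 8 values of the members, 3 values stood far from the rest of their group. By chance the rule flags about 1 group in 20, so a few flags are due among 42 groups. The groups of 4 lie within the groups of 8, so the flags are not independent. *Tcf3* was at 62.85 CPM in *GFP*-NSPC sample 1, below the other 7 *GFP*-NSPC samples (95.47 to 133.9 CPM). *Tcf3* was also at 103.63 CPM in *GFP*-NSPC sample 8, below the other 3 of numbers 5 to 8 (130.7 to 133.9 CPM). *Insm1* was at 0.32 CPM in *Dbx2*-NSPC sample 1, which is 1 read, while the other 3 of numbers 1 to 4 were listed at 0.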

How the results depend on the processing

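Over all samples, the directions and calls of *Neurod1*, *Hes6*, *Insm1*, *Tcf3* and *Tcf12* were the same in every alternative run that could test them, and 4 to 6 members were called. Genes called over all samples were 1982, and 3034 (1501 higher, 1533 lower) with the set of numbers as a covariate. With the replicate block they were 2723 (1359 higher, 1364 lower). The numbers did not pair the samples: same-numbered samples deviated from the group means with r = 0.152 to 0.303, but from the means of transgene and set with r = -0.00741 to 0.119, over 0.1 for 1 of 8, and 4 of 8 correlated best with their own number. The block called *Tcf4* over all samples (adjusted p = 0.0110) and *Tcf3* (adjusted p = 0.0117) and *Dbx2* (adjusted p = 0.00557) in numbers 1 to 4. Leaving out 1 sample gave 1286 (without *GFP*-NSPC sample 3) to 2209 (without *GFP*-NSPC sample 1) genes called in numbers 1 to 4, 1 to 2 members called in the difference between sets and 2 to 5 between the *GFP*-NSPC sets. A pseudocount of 0.1 left 1 member called in the difference between sets. The difference of *Insm1* between sets, 0.06 and not called, was -0.23 with a pseudocount of 2, 0.91 with one of 0.1, 1.82 with edgeR and -0.33 to 0.45 with 1 sample left out. The cause of these changes was not tested. Low depth limits *Neurog2*, *Insm1* and *Bhlhe22*, which had 8, 68 and 9 reads in all *GFP*-NSPCs and 42, 11 and 0 in all *Dbx2*-NSPCs.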

Other observations

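Of 9 tested genes of the members, lists and cell type markers that lie on chromosome 10, 8 had a negative log2 fold change over all samples, 4 were called lower and 0 higher by limma. Of all 613 tested genes of chromosome 10, 78.6% were negative, 227 were called lower and 22 higher. The counts for the 9 genes are too small to set them apart from the chromosome. Beside *Tcf3* and *Hdac2*, the genes called lower were *Fabp7*, a fatty acid binding protein of radial glia (-0.72, adjusted p = 0.0149), and *Gja1*, the gap junction protein connexin 43 (-4.12, adjusted p = 3.42e-04), which are named here after their values were seen. The *Gja1* difference was far beyond the chromosome median of -0.37, and the other called astrocyte markers, *Gfap* and *Aldoc*, were higher. Whether these genes and the chromosome moved together was not tested. Between the *GFP*-NSPC sets, 176 chromosome 10 genes were called higher and 63 lower in numbers 5 to 8, with a median log2 difference of 0.18.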
